A study of Mus musculus with 3 samples.

Results

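The interleukin 1 family and inflammasome genes described here were Il1a, Il1b, Il1rn, Il18, Il18bp, Nlrp3, Casp1, Casp4, Pycard and Gsdmd. They were read through every probe set whose platform annotation gave exactly 1 gene symbol equal to one of these names. That gave 14 probe sets for the 10 genes, out of 34945 probe sets with 1 symbol that represent 18193 genes. Il1rn and Pycard had 3 probe sets each and the other 8 genes had 1. All 10 genes were among the 12299 measured genes, meaning that the probe set chosen for a gene reached an intensity of 78.9, the median of all values, on at least 1 array. The rule that finds the probe sets uses no measured value, but the members themselves were chosen with earlier results of these data known.

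Interleukin 1 alpha and interleukin 1 beta are inflammatory cytokines that act on the same receptor, and dendritic cells and macrophages are main sources of both. Interleukin 1 beta and its relative interleukin 18 are made as precursors and are cut to their active form by caspase-1, which is switched on inside inflammasomes, complexes of a sensor such as Nlrp3 and the adaptor Pycard (also called ASC). Casp4, the mouse gene for the protein also known as caspase-11, binds LPS in the cytosol, and both caspases cut Gsdmd (gasdermin D), whose released part forms pores in the plasma membrane. Each cytokine arm has a natural antagonist. Il1rn, the interleukin 1 receptor antagonist, occupies the receptor without signalling, and Il18bp is a secreted protein that captures interleukin 18.

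Dendritic cells take up and present antigen, and those used here were raised from the bone marrow of female mice (age 6 weeks). GM-CSF was present at 20 ng/mL, and nonadherent cells were taken on day 7. For 24 h these cells were then given PTX (100 ng/mL), LPS (1 µg/mL) or, as the control, PBS. LPS, the lipopolysaccharide of bacterial outer membranes, activates Toll-like receptor 4. The labels do not spell out PTX. The strain is given as C57BL/7 for the PTX sample and as C57BL/6 for the LPS and PBS samples, and no genotype or transgene is named for any group. The series title sets the LPS response beside the PTX response, and each group held 1 Affymetrix array, hybridized with cRNA from total RNA. With no replicate there is no spread within a group, no standard deviation and no test, so every difference below describes these 3 arrays. The sources used here do not say whether the 3 cultures shared a marrow preparation.

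The LPS array stood apart from the other two before any member is considered. The median intensities were 86.9 (PTX), 65.3 (LPS) and 85.7 (PBS). Added bacterial and phage controls of the hybridization (18 probe sets) were 0.20 higher at the median on the log2 scale in LPS against PBS, and 0.011 higher in PTX against PBS. The poly-A controls (27 probe sets) had a median difference of 0.25 in LPS against PBS and -0.067 in PTX against PBS. For 18S ribosomal RNA the 3′ reading divided by the 5′ reading gave 0.198 with PTX, 1.95 with LPS and 0.260 with PBS. The same ratio differed little between the arrays for Actb (1.40 with PTX, 1.39 with LPS, 1.33 with PBS) and Gapdh (1.12 with PTX, 0.963 with LPS, 1.02 with PBS). The part of these array differences in the results below was not tested. All 15 dendritic cell and antigen presentation markers checked were measured, and their summed intensity was 45911 (PTX), 59583 (LPS) and 41698 (PBS). By the probe sets that represent these genes, 2 were at least 2-fold higher in PTX against PBS and 5 in LPS against PBS, and none was lower. In LPS against PBS, 1 of 3 other measured probe sets of H2-Aa (-2.53) and 1 of 2 of Zbtb46 (-1.35) were at least 2-fold lower. Among all measured genes 3.04% were higher and 2.37% lower in PTX against PBS, and 6.50% higher and 13.0% lower in LPS against PBS. All 10 macrophage and monocyte markers with a probe set were measured too, and their summed intensity was 44729 (PTX), 47080 (LPS) and 28836 (PBS). By the probe sets that represent them, 3 (Fcgr1, Mertk and Maf) were at least 2-fold higher in PTX against PBS. In LPS against PBS 3 were (Fcgr1, Adgre1 and Cd68), and none was lower in either. Both other measured probe sets of C1qb (-1.30 and -1.09) and 1 of 4 of Maf (-1.34) were at least 2-fold lower in LPS against PBS. The median difference of the macrophage and monocyte markers was 0.86 in PTX against PBS and 0.32 in LPS against PBS. That of the dendritic cell markers was 0.18 and 0.50. Neutrophils also make interleukin 1 beta and its antagonist. Of 11 neutrophil markers with a probe set 9 were measured, with a summed intensity of 14389 (PTX), 18631 (LPS) and 18468 (PBS), and the early granule genes Mpo and Elane were under the measured level on every array. Single markers of this list differed in both directions. Csf3r differed by 2.07 and S100a9 by -1.82 in PTX against PBS, Camp differed by 1.66 and Ltf by -1.05 in LPS against PBS, and S100a9 read 1924 with LPS and 3877 with PBS. Of 10 mast cell and eosinophil markers with a probe set 5 were measured, with a summed intensity of 352.9 (PTX), 2093 (LPS) and 587.5 (PBS), most of it on the LPS array from Prg2 (1274) and Cpa3 (549.5). Prg2 differed by -1.49 in PTX against PBS and by 3.28 in LPS against PBS, Cpa3 by -0.32 with PTX and 2.33 with LPS, and Siglecf by -1.75 with PTX and -2.15 with LPS. Fcer1a, Ms4a2 and Epx were under the measured level on every array. Of the T cell markers 4 of 8 were measured, of the NK cell markers 2 of 6, and of the B cell markers 1 of 6 (Vpreb3, -2.03 in PTX against PBS and -3.85 in LPS against PBS). The part of other cells in the members' differences was not tested. In RNA from a whole culture, more cells of a type and more RNA per cell cannot be told apart.

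Values below are intensities as deposited, and a log2 difference is taken after adding 16 to each intensity. A gene is called at least 2-fold higher or lower at a log2 difference of 1 or more in size.

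Il18bp and Casp4 were at least 2-fold higher than PBS with both stimuli, Il1a, Il1b and Gsdmd with LPS alone and Il18 with PTX alone. For Gsdmd this rests on the threshold. Its log2 difference from PBS was 0.69 with PTX and 1.15 with LPS, and PTX against LPS gave -0.46, within 2-fold. The share of all measured genes in each of these classes is not given here. With LPS, 5 of the 10 genes (Il1a, Il1b, Il18bp, Casp4 and Gsdmd) were at least 2-fold higher than with PBS and none was lower, where 6.50% of all measured genes were higher and 13.0% lower. With PTX, 3 genes (Il18, Il18bp and Casp4) were at least 2-fold higher than with PBS and Il1a was lower, where 3.04% of all measured genes were higher and 2.37% lower. In PTX against LPS, Il1a, Il1b and Il1rn were at least 2-fold lower and Il18 was higher, where 6.24% of all measured genes were lower and 13.7% higher. At the median of the 10 genes the log2 difference was 1.03 for LPS against PBS (-0.081 over all measured genes), 0.28 for PTX against PBS (0.005) and -0.27 for PTX against LPS (0.090). Both stimuli were set against the same PBS array, so their differences from it are not independent of each other. The background shares that involve LPS depended on the scaling of the arrays: after each array was centred on its median, 13.0% of measured genes were at least 2-fold higher and 8.15% lower in LPS against PBS, and 8.35% higher and 14.1% lower in PTX against LPS.

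**Figure D1:**
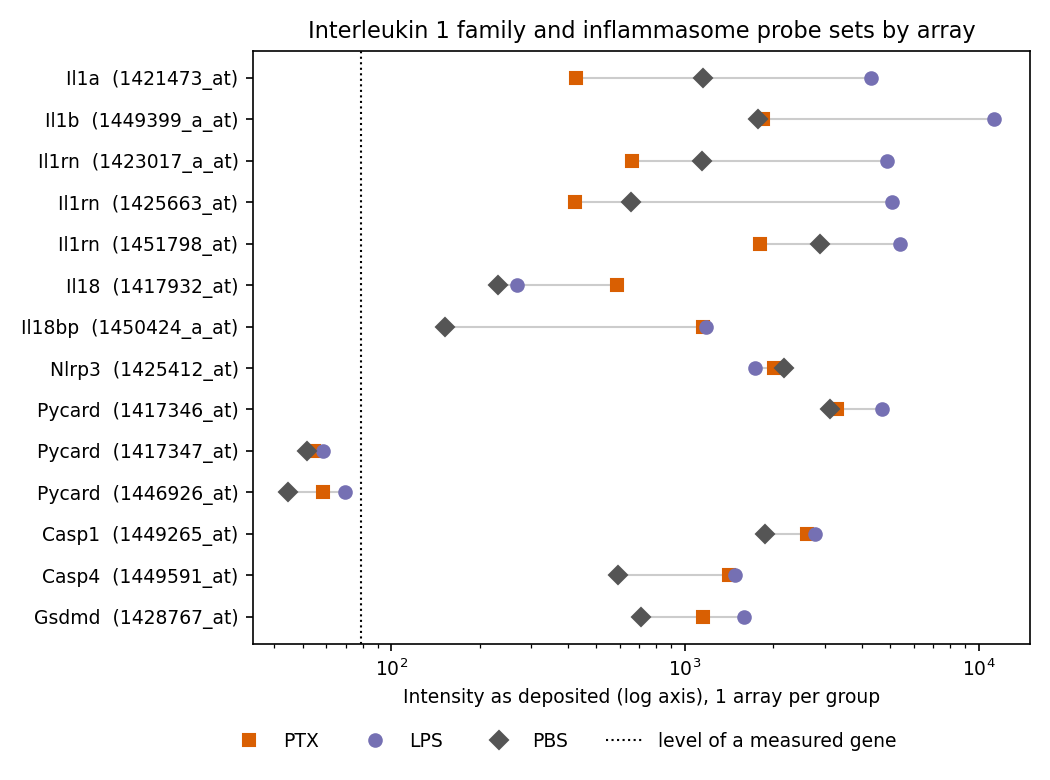
Intensity as deposited (horizontal log axis) of the 14 probe sets of the 10 genes, 1 array per group: PTX (squares), LPS (circles) and PBS (diamonds). Each row is read by itself; Il1a, Il1b and Il1rn are highest with LPS, Il18 is highest with PTX, Il18bp and Casp4 are high with both, and 2 of the 3 Pycard probe sets lie left of the dotted line at 78.9.

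Promoter sequences of 4 members are shown because their genes stand for the patterns seen: Il1b was higher with LPS alone, Il18 with PTX alone, and Casp4 and Il18bp with both. Each runs 5′ to 3′ on the gene's strand from 250 bases before to 50 bases after a RefSeq transcript start (GRCm38.p6), and RefSeq gave such windows for 9 of the 10 genes (13 windows of 300 bases). The array files name no genome build. Capitals mark matches to any of the 5 motifs searched on both strands, which here are all NF-kB-type.
Il1b (chr2:129371090-129371389, minus strand): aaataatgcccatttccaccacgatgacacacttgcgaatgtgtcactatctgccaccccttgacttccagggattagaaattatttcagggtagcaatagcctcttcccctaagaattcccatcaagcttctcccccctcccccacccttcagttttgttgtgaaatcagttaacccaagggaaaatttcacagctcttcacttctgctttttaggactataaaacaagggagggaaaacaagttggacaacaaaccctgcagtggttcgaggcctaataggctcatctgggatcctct
Il18 (chr9:50554450-50554749, plus strand): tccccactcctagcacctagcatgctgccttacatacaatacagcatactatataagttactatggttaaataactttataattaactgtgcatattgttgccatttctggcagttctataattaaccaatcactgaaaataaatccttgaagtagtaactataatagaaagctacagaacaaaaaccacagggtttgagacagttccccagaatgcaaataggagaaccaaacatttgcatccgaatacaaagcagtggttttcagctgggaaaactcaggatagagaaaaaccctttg
Il18bp (chr7:102018183-102018482, minus strand): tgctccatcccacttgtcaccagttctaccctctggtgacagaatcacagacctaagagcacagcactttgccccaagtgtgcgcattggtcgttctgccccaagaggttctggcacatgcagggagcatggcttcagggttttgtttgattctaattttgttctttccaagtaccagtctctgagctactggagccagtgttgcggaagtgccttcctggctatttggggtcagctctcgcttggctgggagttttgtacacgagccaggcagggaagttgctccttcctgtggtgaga
Casp4 (chr9:5308599-5308898, plus strand): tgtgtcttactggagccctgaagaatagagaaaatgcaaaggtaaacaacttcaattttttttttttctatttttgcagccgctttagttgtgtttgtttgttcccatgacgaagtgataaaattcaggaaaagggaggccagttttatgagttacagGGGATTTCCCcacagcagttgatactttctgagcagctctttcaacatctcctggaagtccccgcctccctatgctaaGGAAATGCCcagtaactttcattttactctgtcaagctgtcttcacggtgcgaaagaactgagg

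The loose NF-kB pattern GGNNTTNCC was found in windows of 3 members, Casp4, Il1rn and Nlrp3, and in 15.96% of all 32851 windows in the RefSeq table. In the Casp4 window the capitals cover 3 matches: an overlapping pair that begins 92 and 91 bases before the start (GGGATTTCC and GGATTTCCC), and GGAAATGCC, a match on the opposite strand that begins 14 bases before it. The Ets-IRF pattern GGAANNGAA was found in windows of Casp1 (2 matches) and Il1rn (1 match), and in 8.243% of all windows. No window of a member held the interferon-stimulated response element core GAAANNGAA (8.560% of all windows), the interferon-gamma activated site TTCNNNGAA (8.298%) or the cAMP response element TGACGTCA (1.790%). The Ets-IRF and response element patterns can overlap. A match describes the letters in the window and not a bound site, and a window without a match says nothing of enhancers elsewhere.

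Among the 3 cytokines, Il1b had the highest ratio of LPS to PBS. Its intensity was 1844 with PTX, 11315 with LPS and 1770 with PBS. The LPS array thus stood 6.39 times above the PBS array (log2 difference 2.67), a difference exceeded by 71 of the 12299 measured genes. The PTX and PBS arrays nearly coincided for Il1b (log2 difference 0.059, and -0.068 with quantile normalization). PTX against LPS gave -2.61, and over the alternative settings this value lay between -3.02 and -2.35.

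Il1a, which encodes the cytokine that can act from the cell surface or after release from damaged cells, was the only member at least 2-fold higher with one stimulus and at least 2-fold lower with the other. Its intensity was 427.3 with PTX, 4288 with LPS and 1155 with PBS. LPS was 3.71 times PBS (log2 difference 1.88) and PTX was 0.370 times PBS (-1.40). By the probe sets that represent the genes, the span between the stimuli was the widest of the 10, with a log2 difference of -3.28 in PTX against LPS, and 22 measured genes had a lower value.

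Il18 showed another order, with PTX above both other arrays. Its intensity was 588.1 with PTX, 268.7 with LPS and 231.2 with PBS. PTX was 2.54 times PBS (log2 difference 1.29, range 1.14 to 1.34 over the alternatives), whereas the LPS difference from PBS was 0.20. Il18 was 2.19 times higher with PTX than with LPS (log2 difference 1.09), and 1504 measured genes had a higher value. That difference passed 2-fold as deposited but not with median centring, quantile normalization or a pseudocount of 64, where it went down to 0.69.

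The antagonists were also uneven. Il18bp, the interleukin 18 binding protein gene, had a large positive difference under both stimuli. Its intensity was 1150 with PTX, 1180 with LPS and 152.6 with PBS, so the PTX and LPS arrays were alike and both far above PBS. The ratio to PBS was 7.53 with PTX (log2 difference 2.79) and 7.73 with LPS (2.83), and 41 measured genes with PTX and 54 with LPS had a larger positive value. In PTX against LPS the difference was -0.037, between -0.44 and 0.069 over the alternatives. The log2 difference of the ligand gene Il18 minus that of Il18bp was -1.50 in PTX against PBS and -2.62 in LPS against PBS.

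The 3 probe sets of Il1rn gave the same direction and different sizes. Probe set 1451798_at, which represents the gene because its mean log2 value was highest, read 1806 with PTX, 5413 with LPS and 2872 with PBS. Probe set 1423017_a_at read 658.1 with PTX, 4865 with LPS and 1139 with PBS. Probe set 1425663_at read 424.0 with PTX, 5057 with LPS and 656.2 with PBS. On all 3 the LPS array was highest and the PTX array lowest, with log2 differences of 0.91, 2.08 and 2.92 in LPS against PBS and of -0.66, -0.78 and -0.61 in PTX against PBS. Il1rn is therefore counted as within 2-fold in LPS against PBS, although 2 of its 3 probe sets were at least 2-fold higher, and with the mean of the 3 the difference was 1.97. In PTX against LPS all 3 were at least 2-fold lower (-1.58, -2.86 and -3.53). RefSeq lists 3 transcript starts for Il1rn, and which transcripts each probe set reads was not matched here.

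How far the ligand Il1b stood from its antagonist depended on the Il1rn probe set. In LPS against PBS the difference of Il1b minus that of Il1rn was 1.75 with probe set 1451798_at, 0.59 with 1423017_a_at and -0.25 with 1425663_at, so that these arrays do not settle its sign. In PTX against PBS it was 0.72, 0.84 and 0.67, where Il1rn was lower and Il1b nearly level. For Il1a, the same subtraction gave -0.74, -0.62 and -0.79 in PTX against PBS, and 0.97, -0.20 and -1.04 in LPS against PBS.

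**Figure D2:**
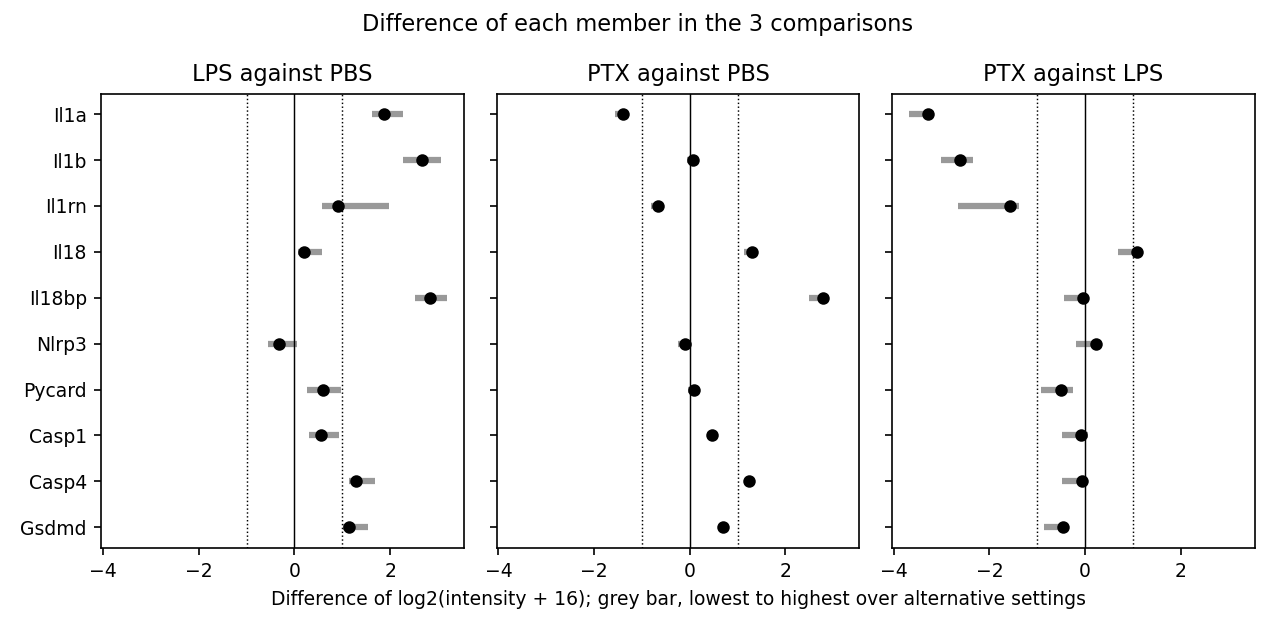
Difference of log2(intensity + 16) of each of the 10 genes (points), 1 panel per comparison, with grey bars from the lowest to the highest value over the alternative settings and dotted lines at 2-fold. The Il1rn bar in LPS against PBS runs from 0.58 to 1.97 across the 2-fold line, and the Il18 bar in PTX against LPS from 0.69 to 1.19.

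The sensor and the adaptor were within 2-fold in every comparison. Nlrp3, the sensor of ion efflux and membrane damage, read 2014 with PTX, 1727 with LPS and 2182 with PBS, so that the PBS array was highest. Its log2 difference was -0.11 in PTX against PBS and -0.33 in LPS against PBS, and the LPS value reached 0.054 with median centring. Pycard read 3304 with PTX, 4698 with LPS and 3114 with PBS on its bright probe set, with the LPS array highest and log2 differences of 0.085 in PTX against PBS and 0.59 in LPS against PBS. Over the alternatives the LPS value of Pycard lay between 0.27 and 0.98, the highest just under 2-fold. Its other 2 probe sets read between 44.7 and 69.5 on the 3 arrays, under the measured level, and give no usable difference.

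Of the caspases, Casp4 passed 2-fold with both stimuli and Casp1 with neither. Casp4 read 1408 with PTX, 1476 with LPS and 592.2 with PBS. That is 2.38 times PBS with PTX (log2 difference 1.23) and 2.49 times PBS with LPS (1.29). Casp1, the enzyme that matures interleukin 1 beta and interleukin 18, read 2610 with PTX, 2767 with LPS and 1880 with PBS, with log2 differences of 0.47 in PTX against PBS and 0.55 in LPS against PBS. Over the alternatives the LPS value of Casp1 lay between 0.30 and 0.94. For both genes the PTX and LPS arrays lay close together above PBS: PTX against LPS gave -0.067 for Casp4 and -0.084 for Casp1, with signs that turned under other scalings. The arrays measure RNA, and tell nothing of how much caspase was cleaved or active.

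Gsdmd, the pore-forming target of both caspases, was highest with LPS. Its intensity was 1153 with PTX, 1595 with LPS and 710.0 with PBS. The log2 difference from PBS was 0.69 with PTX and 1.15 with LPS, and the LPS value stayed between 1.01 and 1.54 over the alternatives. Of the genes past 2-fold in LPS against PBS, it lay nearest the threshold, and Il1rn at 0.91 lay nearest it from below.

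**Figure D3:**
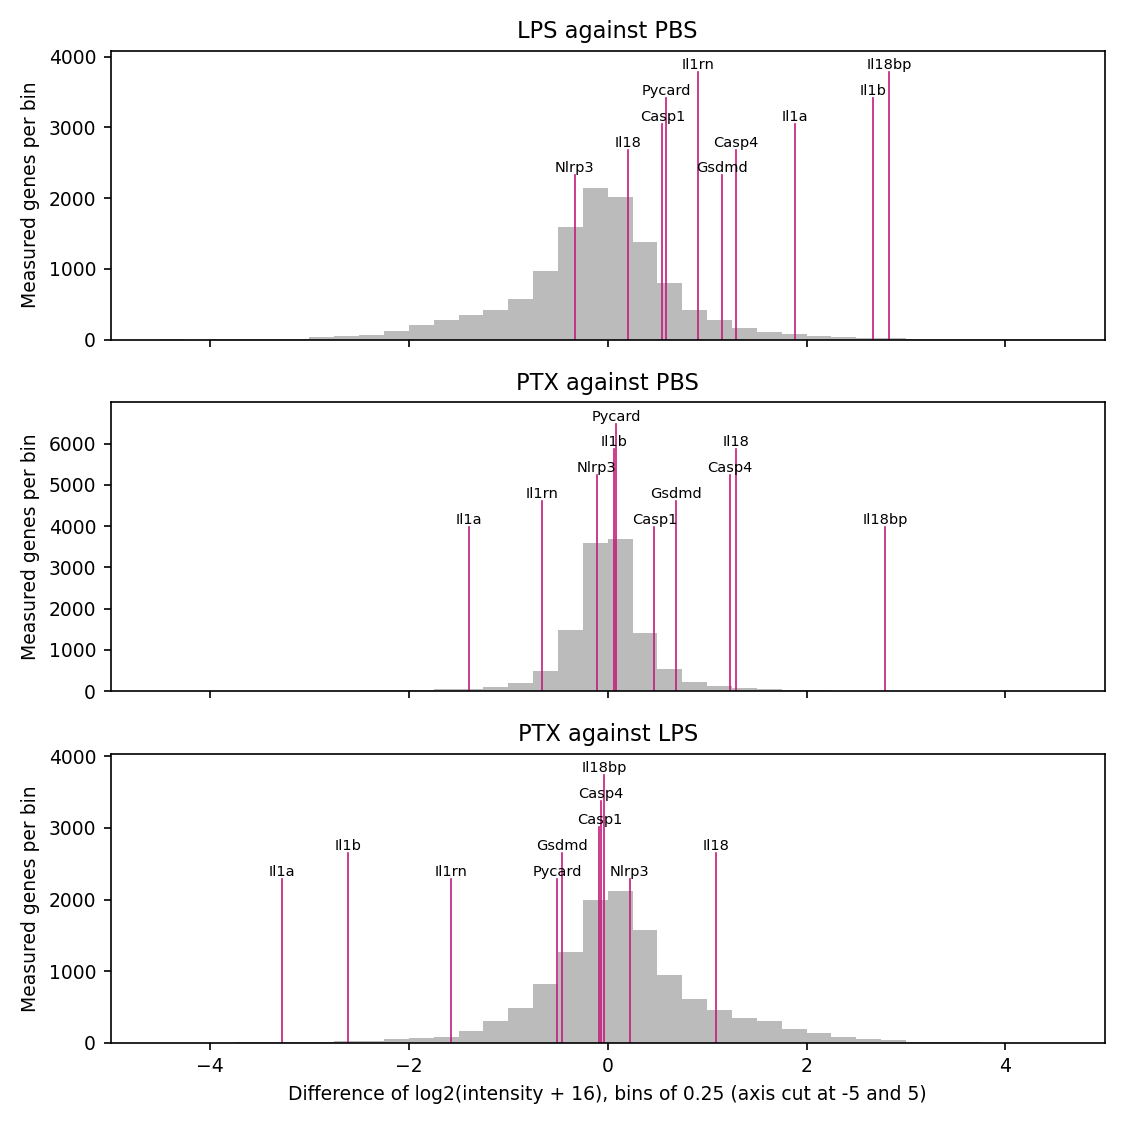
Number of measured genes (grey bars, 12299 in all) by difference of log2(intensity + 16) in bins of 0.25, with the 10 members as vertical lines whose height only separates their names. In LPS against PBS 9 of the 10 lines lie above 0 (44.0% of all measured genes), in PTX against PBS 7 (50.7%), and in PTX against LPS 2 (56.5%).

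Since the LPS array differed in its overall level, the members were also set against the median of all measured genes under 4 scalings. The median of all measured genes in LPS against PBS was -0.081 as deposited, 0.31 with median centring, 0.11 with quantile normalization and -0.22 with scaling to the hybridization controls. Median centring and scaling to the controls each multiply an array by 1 factor, and subtracting the median of all genes nearly cancels such a factor. Of these scalings, only quantile normalization could therefore shift the relative values by much. Relative to that median, Il1b lay between 2.17 and 2.75 over these scalings, Il1a between 1.51 and 1.96, Il18bp between 2.79 and 2.91, Casp4 between 1.15 and 1.38, and Gsdmd between 0.97 and 1.23. Nlrp3 lay between -0.67 and -0.25, on the low side of the median in each. In PTX against PBS, where the median of all genes stayed between -0.030 and 0.005, the place of Il18 was 1.28 to 1.36 and that of Il1a -1.54 to -1.41.

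Further genes of the pathway were taken from 5 lists, in which 44 of 50 genes with a probe set were measured. In LPS against PBS 6 of the 44 (13.6%) were at least 2-fold higher, 5 (11.4%) were lower and 33 were within 2-fold, where all measured genes gave 6.50% higher and 13.0% lower. In PTX against PBS 5 (11.4%) were higher, 2 (4.55%) lower and 37 within 2-fold, where all measured genes gave 3.04% higher and 2.37% lower. The median of the 44 was -0.13 in LPS against PBS and 0.066 in PTX against PBS, beside -0.081 and 0.005 over all measured genes.

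Of the other interleukin 1 family ligands, 4 were measured, and with LPS none was 2-fold from PBS. Il1f9, the gene of interleukin 36 gamma, read 138.8 with PTX, 605.8 with LPS and 534.6 with PBS, so that like Il1a it was lower with PTX than with PBS (log2 difference -1.83). Il33, an alarmin of the family, was under the measured level on all 3 arrays.

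Among 7 measured receptor genes, 3 were at least 2-fold lower with LPS than with PBS and none was 2-fold from PBS with PTX. Over all measured genes 13.0% were at least 2-fold lower with LPS as deposited and 8.15% with median centring. The receptor count is as deposited only, and its 3 lower values lay between -1.25 and -1.09, near the threshold. Median centring moved the median of all measured genes in LPS against PBS from -0.081 to 0.31, so the count depends on the scaling. Sigirr, an inhibitory receptor of the family, read 391.6 with PTX, 120.9 with LPS and 279.3 with PBS, so that the LPS array was lowest (log2 difference -1.11 in LPS against PBS). Il1rl2, the interleukin 36 receptor, had a difference of -1.25 in LPS against PBS, but its other measured probe set gave 0.49. Il18rap, the accessory chain of the interleukin 18 receptor, had -1.09, and its other measured probe set -0.91. The signalling receptor Il1r1 (0.75 in LPS against PBS, -0.19 in PTX against PBS) and the decoy receptor Il1r2 (-0.36 in LPS against PBS, -0.57 in PTX against PBS) were within 2-fold of PBS.

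In the signalling list 2 of 12 measured genes were at least 2-fold higher with LPS and none with PTX. All measured genes gave 6.50% higher with LPS and 3.04% with PTX. Irak3, an inhibitory kinase-like protein of Toll-like and interleukin 1 receptor signalling, read 1014 with PTX, 2429 with LPS and 723.0 with PBS (log2 difference 1.73 in LPS against PBS, and 1.58 on its other probe set). Peli1, a ubiquitin ligase of the same pathway, read 500.8 with PTX, 1413 with LPS and 343.3 with PBS (1.99), but none of its 4 other measured probe sets was 2-fold higher in LPS against PBS and 2 were at least 2-fold lower. The adaptor Myd88 was within 2-fold (0.32 in LPS against PBS, 0.47 in PTX against PBS).

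Of 13 other measured inflammasome genes, 2 were at least 2-fold higher with LPS and 3 with PTX, and none was lower with either. For all measured genes the shares were 6.50% higher and 13.0% lower with LPS, and 3.04% higher and 2.37% lower with PTX. The kinase gene Nek7, a partner of Nlrp3, counted as within 2-fold at -0.84 in LPS against PBS, but both of its other measured probe sets were at least 2-fold lower (-2.17 and -1.41). Mefv, which encodes the inflammasome sensor pyrin, read 1043 with PTX, 982.1 with LPS and 428.5 with PBS, so that both stimuli were above PBS (log2 differences 1.25 with PTX and 1.17 with LPS). Gbp2, a guanylate-binding protein that acts on intracellular bacteria, read 3619 with PTX, 3829 with LPS and 1598 with PBS (1.17 with PTX and 1.25 with LPS). P2rx7, the receptor for extracellular ATP upstream of Nlrp3, was highest with PTX, at 857.5 with PTX, 368.2 with LPS and 401.0 with PBS. Its difference in PTX against PBS was 1.07, and on its 2 other measured probe sets it lay between 0.55 and 0.98. Aim2, the sensor of cytosolic DNA, read 179.7 with PTX, 189.0 with LPS and 185.4 with PBS.

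Of 8 other measured cell death genes, 2 were higher and 2 lower with LPS, and 2 were higher and 1 lower with PTX. Among all measured genes 6.50% were higher and 13.0% lower with LPS, and 3.04% higher and 2.37% lower with PTX. Zbp1, a sensor of Z-form nucleic acids, read 2533 with PTX, 3388 with LPS and 269.7 with PBS (log2 differences 3.16 with PTX and 3.57 with LPS). Mlkl, the pore protein of necroptosis, read 825.3 with PTX, 878.1 with LPS and 309.3 with PBS (1.37 with PTX and 1.46 with LPS). Zbp1 and Mlkl were thus at least 2-fold higher with both stimuli, while Ripk3, the kinase that acts on Mlkl, read 636.9 with PTX, 487.9 with LPS and 1181 with PBS (-0.87 with PTX and -1.25 with LPS). Gsdme, the gasdermin cut by caspase-3, differed by -1.35 in PTX against PBS and -0.97 in LPS against PBS. Casp12 differed by -1.14 in LPS against PBS with readings of 22.1 with LPS and 67.8 with PBS, both under the measured level.

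**Figure D4:**
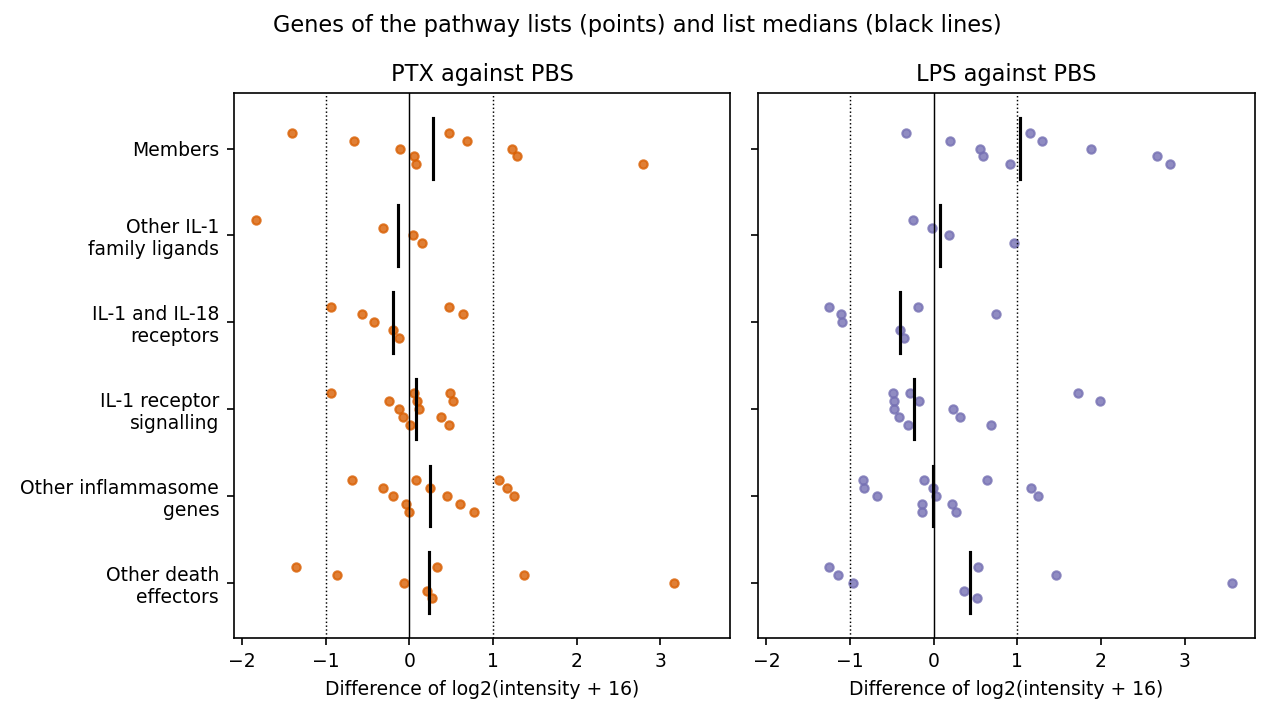
Difference of log2(intensity + 16) from PBS of each measured gene (points) in the 10 members and the 5 further lists, in PTX against PBS and LPS against PBS, with list medians as black lines and 2-fold as dotted lines. The member median lies at 0.28 with PTX and 1.03 with LPS; the farthest point to the right is Zbp1, at 3.16 with PTX and 3.57 with LPS.

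Genes with nearly the same differences from PBS were sought for Il1b and Il18 by the distance over the 2 log2 differences from PBS, across 12299 genes and 3 arrays. The 5 nearest to Il1b were Whrn, Gja1, Egr3, Cep85 and Xcl1, at distances of up to 0.178. They were picked by the same 2 differences, so that the LPS array stood well above the PTX and PBS arrays in each follows from the choice. Whrn, Gja1 and Xcl1 were under the measured level on the PTX and PBS arrays and counted as measured through the LPS array alone. The 5 nearest to Il18 were Apobec1, Trpv4, Mx1, Klra2 and Lgmn, at distances of up to 0.101. By the same choice, each of these was at least 2-fold higher with PTX than with PBS and differed by at most 0.30 in LPS against PBS. Mx1, an interferon-induced antiviral gene, read 2130 with PTX, 936.5 with LPS and 847.2 with PBS.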

How the data were processed

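The deposited values are intensities, 1 for each probe set on each array. They are linear, and the lowest is 1. Per the labels' protocols, 3 µg of total RNA was labelled with biotin as cRNA for Affymetrix arrays. How probes were summarized, corrected for background and scaled is not given in the sources used here. Array medians differed, so values were used as deposited and no common median was assumed. A pseudocount of 16 was added before taking log2, so differences of dim readings come out smaller.

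The 45101 probe sets comprised 64 controls, 34945 with 1 symbol in the platform's annotation, 932 with more than 1 and 9160 that it does not name. No probe set with several symbols named a member. A gene was represented by the single-symbol probe set that was brightest by mean log2 value over the 3 arrays. Genes were measured when that probe set reached an intensity of 78.9 (the median of all noncontrol values) on at least 1 array. With 1 array per group no test was made, and precision is limited by the number of arrays. Genes were counted at a 2-fold difference, and the computation was tested on simulated data. Named pathway genes are those measured and at least 2-fold from PBS with either stimulus, and the 5 genes nearest to Il1b and to Il18. Others were added after their values were seen (the named cell markers, Nek7, Il33, Il1f6, Il1r1, Il1r2, Myd88 and Aim2). Lists and members were chosen with earlier results of these data known. Alternatives covered scaling, pseudocount, probe set choice, filter and threshold. Python 3.11.15, numpy 2.4.6, pandas 2.3.3 and matplotlib 3.10.9 were used.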

Additional observations from a re-analysis of the deposited data

How the results depend on the processing

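Over 12 alternative settings and 39 results, 366 of 376 recomputed values moved by no more than 1.5 times, and none of the members at least 2-fold apart turned its direction. Part of this count could not have come out otherwise. No member had a probe set ending in _s_at or _x_at, so leaving such probe sets out changed no member. The changes of the filter and the choice of genes without the LPS array also left every member value as reported. With the mean of all probe sets of a gene, Il1rn was at 1.97 in LPS against PBS and -2.65 in PTX against LPS, where its single probe set had given 0.91 and -1.58. The number of members at least 2-fold higher in PTX against LPS was 0 with median centring, with quantile normalization and with a pseudocount of 64, against 1 (Il18) as reported. Of all measured genes 8.35%, 9.80% and 8.94% were higher under these settings, against 13.7% as reported. At a 1.5-fold threshold 2 members were lower in PTX against PBS, where 6.29% of all measured genes were. At a 4-fold threshold 2 members were higher in LPS against PBS, 1 was higher and 0 were lower in PTX against PBS, and 0 were higher in PTX against LPS. All measured genes gave 1.37%, 0.748%, 0.504% and 3.04%, in the same order. Median centring and the mean of all probe sets each gave 6 higher members in LPS against PBS, against 5 as reported. The shares of all measured genes were 13.0% and 5.42%, against 6.50% as reported. Among all measured genes, median centring gave 1620 higher and 1017 lower in LPS against PBS, where the values as deposited gave 799 and 1601, and 1754 lower in PTX against LPS, where they gave 767. A pseudocount of 64 gave 1019 lower in LPS against PBS and 1101 higher in PTX against LPS, and the filter at the 75th percentile gave 775 and 883, where the values as deposited gave 1601 and 1681. Choosing genes and probe sets without the LPS array, an alternative added after seeing the data, left 3 members higher and 1 lower in PTX against PBS. Of all genes measured in that way 3.26% were higher and 2.56% lower. No paired analysis was possible because each group held 1 array, and no array could be left out of a group. Dim readings near the background, such as those of Casp12, limit what can be said of their differences.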
